A study of Mus musculus with 80 samples.

Results

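The genes described are the 9 enzymes and cofactors that write or remove DNA methylation: Dnmt1, Dnmt3a, Dnmt3b, Dnmt3l, Uhrf1, Tet1, Tet2, Tet3 and Tdg. They were chosen by name and role, with earlier results of these data known. All 9 were among the 25899 gene symbols of the expression table. The cells were muscle stem cells (MuSCs) of extraocular muscles (EOM), which move the eye, and of the tibialis anterior (TA), a muscle of the lower hindlimb. Donors were Tg:Pax7-nGFP mice on a C57BL/6;DBA2 F1/JRj background, aged 7.6 weeks in Experiment 1 and 7 weeks in Experiment 2, in which a nuclear GFP under the control of Pax7 marks MuSCs for sorting. EOM and TA MuSCs of each donor were either lysed after sorting (before grafting, 500 cells) or injected into the cardiotoxin-injured TA muscles of 1 immunodeficient Rag2-/-;γC-/- recipient, which lacks lymphocytes, and sorted again by GFP at day 21 according to the labels, where the methods of the study give a range of weeks and its results a later day. Both kinds of graft therefore sat in a TA muscle, every donor cell carried the transgene, and the EOM and TA grafts held a median of 35 and 26 cells by their labels, with as few as 9. Of 40 RNA libraries from 10 donors, the 30 that passed the quality control of the study were used: 8 of EOM and 8 of TA before grafting, 7 EOM grafts and 7 TA grafts. The EOM library of mouse 3 of Experiment 2 before grafting was left out by the study as an outlier in its group, and not for its reads. Bisulfite libraries were made from the same lysates and were not analysed here.

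DNA methylation is the addition of a methyl group to cytosine, in mammals mostly where cytosine is followed by guanine (CpG). Dnmt3a and Dnmt3b place new marks, Dnmt3l is a catalytically inactive cofactor of both that is best known in germ cells, and Dnmt1 copies existing marks to the new strand after replication, guided there by Uhrf1. Tet1, Tet2 and Tet3 oxidise the methyl group and Tdg cuts out the oxidised bases, which repair then replaces with unmodified cytosine. Adult MuSCs are mostly quiescent, a state in which no new strand needs to be copied, and they divide when the muscle is injured.

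Before grafting, Tet2 was the most abundant of the 9 transcripts in both muscles. After grafting, the ratio of Tet2 to Tet3 fell in both muscles, by 2.86-fold in EOM and 2.24-fold in TA grafts. It was lower in every donor whose libraries of both stages passed, 6 in EOM and 7 in TA. Relative to all reads, Tet2 fell in both grafts while Tet3 stood close to its level before grafting, but most genes were lower in the grafts on this scale, and on scales set by the other genes Tet2 was not called, so the members are set beside all genes throughout. No member differed between EOM and TA MuSCs before grafting, nor between their grafts, by the test used.

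The sequences upstream of Tet2 and Tet3 are shown because their ratio differed between the stages, and that of Dnmt1 because it held the only E2F motif among the members. A part of these sequences in any change was not tested. Each window runs from 250 bases before to 50 bases after a RefSeq start site (assembly GRCm38.p6), 5′ to 3′ on the strand of the gene, with every CpG in capitals.
Tet2, chr3:133544341-133544640, minus strand: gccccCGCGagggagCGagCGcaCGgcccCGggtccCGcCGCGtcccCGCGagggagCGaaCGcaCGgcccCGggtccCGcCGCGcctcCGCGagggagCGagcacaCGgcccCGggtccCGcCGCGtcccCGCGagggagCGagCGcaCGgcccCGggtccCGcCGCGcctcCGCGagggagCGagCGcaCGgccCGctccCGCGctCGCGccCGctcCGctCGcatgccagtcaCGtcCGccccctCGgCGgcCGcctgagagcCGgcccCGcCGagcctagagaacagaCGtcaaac
Tet3, chr6:83441629-83441928, minus strand: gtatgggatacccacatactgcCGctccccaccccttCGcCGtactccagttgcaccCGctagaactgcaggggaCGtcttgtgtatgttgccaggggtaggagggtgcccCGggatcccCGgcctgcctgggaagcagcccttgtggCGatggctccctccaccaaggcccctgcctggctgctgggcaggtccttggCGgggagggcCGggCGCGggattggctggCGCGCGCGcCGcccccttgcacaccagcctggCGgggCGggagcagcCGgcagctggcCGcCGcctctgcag
Dnmt1, chr9:20952574-20952873, minus strand: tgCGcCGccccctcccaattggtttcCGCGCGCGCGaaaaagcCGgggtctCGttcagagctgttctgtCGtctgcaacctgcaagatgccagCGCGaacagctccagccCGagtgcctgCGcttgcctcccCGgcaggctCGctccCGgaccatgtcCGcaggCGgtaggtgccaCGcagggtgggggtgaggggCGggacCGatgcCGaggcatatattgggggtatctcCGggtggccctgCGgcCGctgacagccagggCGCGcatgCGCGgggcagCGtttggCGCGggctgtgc

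All 9 members had at least 1 window in the RefSeq table, 16 in all, and 12 of the 16 held more CpGs than the median of 7 over 32851 windows. The Tet2 window held 57 CpGs, and 99.8% of all windows held fewer. It contained the run CCGCGAGGGAGCGA 5 times, every 42 bases, and no other window of the table contained that run. The Tet3 window held 22 CpGs, above 76.9% of windows, and the Dnmt1 window printed held 33. Dnmt1 had 3 start sites, and the window of its outermost one, at chr9:20959839-20960138, held only 2 CpGs. Motifs were searched on both strands. The E2F motif TTTGGCGC, the site of factors that drive genes of DNA replication, stood in 0.514% of all windows and among the members only in the printed Dnmt1 window, where it began at base 284 counted from the 5′ end, with the start site at base 251. The NRF1 palindrome stood in 0.971% of windows, in that Dnmt1 window at base 265, without overlapping the E2F match, and in 1 other window of Dnmt1. The other E2F form searched, TTTCCCGC, was in 1.07% of windows and in none of the members. The Sp motif GGGCGGGG was in 17.6% of all windows, and among the members in all 3 of Dnmt3a, in that of Dnmt3b and in 1 each of Dnmt3l and Uhrf1. The Dnmt3a windows at chr12:3806730-3807029 and chr12:3806910-3807209 overlap, and their first Sp matches are the same site. The NFY motif CCAATCA was in 7.82% of all windows, in both of Uhrf1 and in the outermost of Dnmt1. No motif of the 5 searched was found in the windows of Tet1, Tet2, Tet3 or Tdg.

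On GRCm38, in the coordinates of the deposited table, Dnmt1 (ENSMUSG00000004099) lies at chr9:20907206-20959888 and its guide Uhrf1 (ENSMUSG00000001228) at chr17:56303321-56323486. Dnmt3a (ENSMUSG00000020661) lies at chr12:3806007-3914443, Dnmt3b (ENSMUSG00000027478) at chr2:153649450-153687730 and Dnmt3l (ENSMUSG00000000730) at chr10:78041947-78063622. Tet1 (ENSMUSG00000047146) lies at chr10:62804570-62899118, Tet2 (ENSMUSG00000040943) at chr3:133463679-133544390, Tet3 (ENSMUSG00000034832) at chr6:83362373-83441678 and Tdg (ENSMUSG00000034674) at chr10:82629828-82650799. Dnmt1 and the TET genes are on the minus strand and the others on the plus strand. Values cover the whole gene and do not separate transcript forms.

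Libraries held 3326270 to 14402975 reads before grafting and 5243925 to 10526422 reads in the grafts. Values are log2 of RPM (reads scaled to library size) as deposited, and whole reads could be recovered from them. The recovered reads over all genes came to 963432 to 4169357 before grafting and 1357233 to 2899135 in the grafts. They were fewer than the total reads in every library, and the reason was not tested. Read counts of genes are recovered reads throughout. A single recovered read was worth 0.350 to 1.55 RPM. All members together had 252 to 1011 reads in a library before grafting and 92 to 712 in a graft, so the less abundant members were counted with few reads. The share of reads on mitochondrial genes was 2.91% to 22.9% before grafting and 3.85% to 59.6% in the grafts, which takes reads from all other genes. The reads of overlapping genes on opposite strands cannot be told apart here, since the kit does not mark strand. This touched Tdg, whose antisense neighbour Glt8d2 had a median of 19.5 reads in EOM MuSCs before grafting, and Dnmt3l, which overlaps Aire. Gm10485 (over Dnmt3a) had at most 3 reads in any library and 7530422B04Rik (over Dnmt3b) had none.

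Levels of different genes were compared per kb of exon (GENCODE M21, all transcripts merged). In EOM MuSCs before grafting Tet2 stood at 11.3 ± 2.29 RPM per kb (SD, n = 8), followed by Tdg at 4.61 ± 2.41, Dnmt3a at 3.24 ± 0.784, Tet3 at 2.69 ± 0.399, Dnmt1 at 2.47 ± 1.25, Dnmt3b at 2.22 ± 1.41, Uhrf1 at 1.33 ± 1.18, Tet1 at 0.435 ± 0.296 and Dnmt3l at 0.0250 ± 0.0707. The gap between Tet2 and the rest was larger than the spread between mice. From Tdg to Uhrf1 each neighbour in this order lay within 1 SD of the next. Dividing by the longest coding transcript instead gave the same order. In TA MuSCs Tet2 also came first, at 9.18 ± 2.46 RPM per kb (n = 8), before Tdg at 5.18 ± 3.66 and Dnmt3a at 4.02 ± 1.26. Tet2 was the highest member in 8 of 8 EOM and 7 of 8 TA libraries before grafting, against 2 of 7 EOM and 2 of 7 TA grafts. In EOM grafts Tet2 stood at 4.15 ± 2.58 and Tet3 at 3.00 ± 1.90 RPM per kb (n = 7 each), and in TA grafts at 4.42 ± 3.04 and 3.25 ± 1.66 (n = 7 each). In both grafts Tet2 and Tet3 were therefore within 1 SD of each other.

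**Figure D1:**
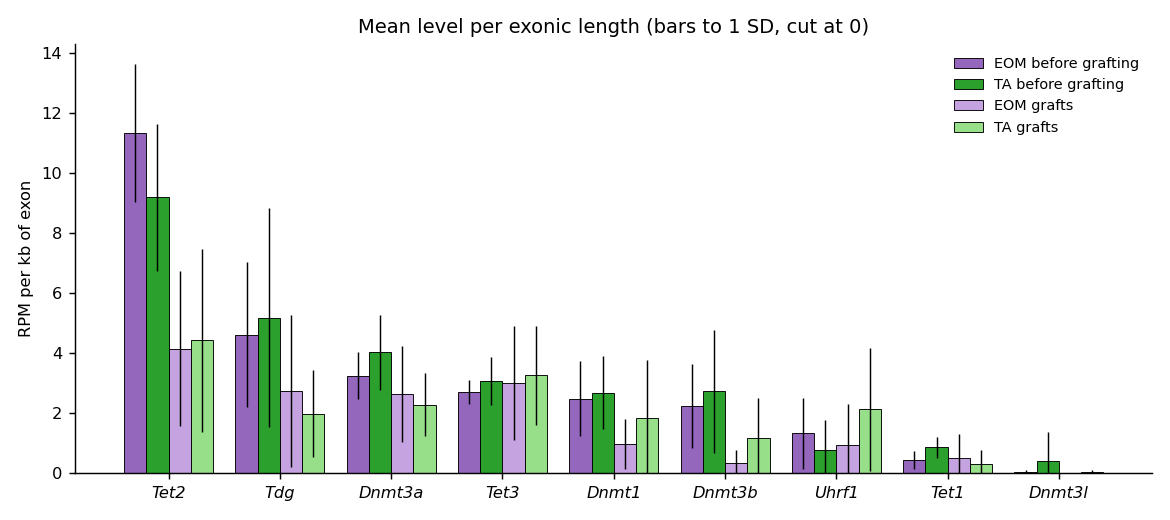
Mean level of each enzyme in RPM per kb of exon (y axis) in EOM and TA MuSCs before grafting (n = 8 each) and in their grafts (n = 7 each), with lines of 1 SD. Tet2 stands above all others before grafting, at 11.3 in EOM and 9.18 in TA, and is near Tet3 in the grafts.

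Whether MuSCs of the head and of the limb differ in their methylation enzymes was asked of the 16 libraries before grafting. None of the 8 members tested was called in either direction, where 4.56% of 13217 genes were (limma, adjusted p under 0.05 and a log2 change beyond 1). At an unadjusted p under 0.05 there was 1 member, Tet1, against 3256 of all genes, and edgeR and DESeq2 also called 0 members, where they called 3.31% and 4.43% of genes. By these tools 3 members, Tet1, Tet3 and Dnmt3a, had an unadjusted p under 0.05. Of the 13217 genes, 2272 had by edgeR and 2407 by DESeq2. No member had ranges that did not overlap, where 2.28% of genes had. Dnmt3l had too few reads for the test.

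Among the maintenance enzymes, Dnmt1 ranged from 0.07 over a median of 4.30 to 4.93 log2 RPM in EOM and from 3.44 over 4.29 to 5.30 in TA. The ranges overlapped, and the low EOM value was a single library with 3 reads. The difference, TA less EOM, was 0.41 ± 0.56 (SE, limma adjusted p = 0.673). Uhrf1, the factor that recognises hemimethylated CpGs after replication, had 0 to 34 reads in EOM and 0 to 32 in TA libraries, and 2 libraries of each muscle had none. Its difference was -0.67 ± 0.82 (adjusted p = 0.638).

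Of the enzymes that place new marks, Dnmt3a was the best counted, with 76 to 207 reads in EOM and 61 to 170 in TA. It ranged from 5.00 over 5.77 to 6.18 log2 RPM in EOM and from 5.41 over 6.05 to 6.56 in TA. The 3 highest TA libraries lay above every EOM library, and the difference of 0.28 ± 0.23 did not pass (adjusted p = 0.448). Dnmt3b ranged from -1.04 over 3.72 to 4.27 in EOM, where 1 library had no read, and from 2.16 over 3.35 to 5.16 in TA (adjusted p = 0.647). Dnmt3l was nearly absent: 1 read in 1 of 8 EOM libraries, and 22 reads in 2 of 8 TA libraries, 20 of them in mouse 2 of Experiment 2. In that library Aire, which overlaps Dnmt3l on the other strand, had 12 reads and was at 0 in the other 7, so the source of these reads cannot be told apart.

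Of the oxidising enzymes, Tet2 ranged from 6.97 over 7.56 to 7.92 log2 RPM in EOM and from 6.45 over 7.29 to 7.83 in TA. Only 1 TA library lay below all EOM libraries, and the difference was -0.32 ± 0.18 (adjusted p = 0.274). Tet3 was the least variable member, from 5.23 over 5.41 to 5.79 in EOM and from 5.20 over 5.58 to 6.19 in TA (difference 0.17 ± 0.20, adjusted p = 0.633). Tet1, best known from pluripotent cells, ranged from 0.07 over 2.31 to 3.76 in EOM and from 2.22 over 3.80 to 4.37 in TA. Of the 8 TA libraries 5 lay above all EOM libraries, but with 3 to 37 reads a library the difference of 1.22 ± 0.56 did not pass (adjusted p = 0.184). Tdg ranged from 3.50 over 4.43 to 5.66 in EOM and from 3.39 over 4.38 to 6.03 in TA, and differed by 0.03 ± 0.42 (adjusted p = 0.97). The median change of the 8 members was 0.23, beside -0.30 over all genes. Some markers of other cell types also differed between the muscles, where 4.56% of all genes were called. Of 6 endothelial markers 1 was called higher in TA, Cdh5, and 1 lower, Tek. Of 7 myofibre markers tested, Acta1 and Myh4 were called higher. Dcn, 1 of 5 fibro-adipogenic markers tested, and Mbp, 1 of 6 Schwann cell markers, were called lower. By edgeR, Cdh5 (adjusted p = 0.0816) and Dcn (adjusted p = 0.98) were not called, and the others named here were. The MuSC marker Pax7 was 1.15 ± 0.22 higher in TA (limma adjusted p = 0.00153). The part of these markers in the values of the members was not tested.

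Whether grafting changed the enzymes was asked within each muscle. On the deposited scale 2 of 8 members were called lower in TA grafts, Tet1 and Tet2, where 30.9% of 13076 genes were called lower, and none was called higher, where 3.79% were. In EOM grafts 2 of 8 were also called lower, Dnmt3b and Tet2, where 55.8% of 13094 genes were called lower, and none higher, where 3.51% were. The median change over all genes was -1.09 in TA and -1.48 in EOM grafts. The members' share called lower was below the background in both. The median change of the 8 members was -1.27 in TA and -1.19 in EOM. No member had graft and pre-graft ranges that did not overlap, while 5.19% of all genes in TA and 11.3% in EOM had. Other scalings called 0 members lower in either muscle. Centring each library on its median called 5.68% of genes lower in TA and 4.84% in EOM, edgeR called 3.07% and 2.9%, and DESeq2 4.15% and 4.17%. Centring called no member higher, where 7.67% of genes in TA and 6.65% in EOM were. Tet3 alone was called higher, in EOM grafts, by edgeR (6.93% of genes there, 5.98% in TA) and by DESeq2 (9.13% and 8.88%). On the deposited scale 5 of 8 members in TA had an unadjusted p under 0.05 by limma, where 6368 of 13076 genes had. In EOM 2 of 8 members had, where 8878 of 13094 genes had.

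Tet2 ranged from 3.96 over 5.84 to 7.13 log2 RPM in EOM grafts and from 4.57 over 5.90 to 7.52 in TA grafts. In each muscle 6 of 7 grafts lay below every library before grafting. Tet2 fell by 1.72 ± 0.39 (SE) on the log2 scale in EOM grafts (limma adjusted p = 0.00188) and by 1.25 ± 0.39 in TA grafts (adjusted p = 0.0187), and it was lower in 6 of 6 EOM and 6 of 7 TA donors. Both calls were kept when any 1 library was left out. With Experiment 2 alone the TA call was lost (-1.18, adjusted p = 0.0784), and without grafts of fewer than 20 cells TA stood at -0.87 (adjusted p = 0.0419), short of the log2 change of 1 required. Set against the median of all genes, Tet2 was lower by only 0.25 in EOM and 0.16 in TA, at the 39.2 and 43.5 percentile of all changes. Its decrease was thus near that of the typical gene.

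Tet3 showed another pattern. It ranged from 2.44 over 5.51 to 6.80 log2 RPM in EOM grafts and from 3.62 over 5.67 to 6.73 in TA grafts, with medians close to the 5.41 and 5.58 before grafting. The lowest graft of each muscle came from mouse 3 of Experiment 2, with 8 and 15 Tet3 reads, and the 2 libraries had 59.6% and 46.8% of reads on mitochondrial genes. The change was -0.20 ± 0.48 in EOM (adjusted p = 0.711) and -0.09 ± 0.44 in TA (adjusted p = 0.877). Against the median of all genes this was 1.27 and 1.00 higher, at the 86.4 and 79.7 percentile. After scaling by edgeR the Tet3 change was 1.22 in EOM, which passed (adjusted p = 0.0375), and 0.80 in TA, which did not (adjusted p = 0.0829). DESeq2 gave 1.32 (adjusted p = 0.00431) and 0.92 (adjusted p = 0.0146, short of the log2 change of 1), and centring on the library median gave 1.05 (adjusted p = 0.0912) and 0.81 (adjusted p = 0.0621). On these 3 scales the Tet3 change was above 0 in both muscles. It was called in EOM by edgeR and DESeq2 and not when centred, and it was not called in TA by any of them.

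The plot of changes on both scalings shows this arrangement, with Tet2 beside the median of all genes and Tet3 to the right of it.

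**Figure D2:**
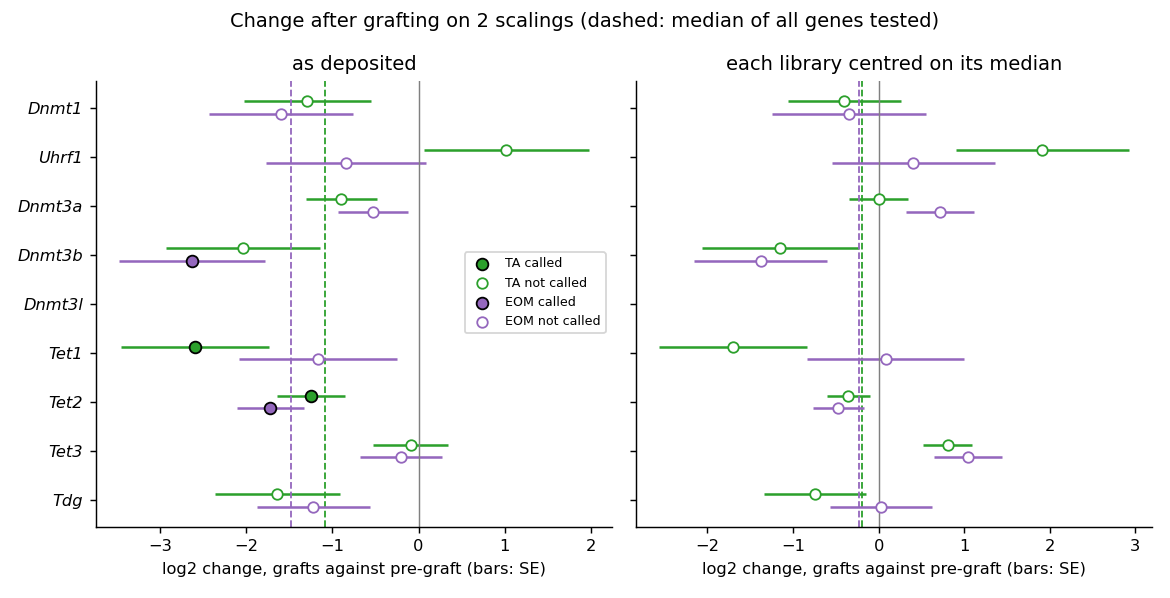
Log2 change of each enzyme after grafting (x axis, bars of 1 SE) in TA (green) and EOM (purple), as deposited on the left and with each library centred on its median on the right. Filled points passed the test and dashed lines mark the median change of all genes tested, -1.09 in TA and -1.48 in EOM as deposited. On the left Tet1 and Tet2 in TA and Dnmt3b and Tet2 in EOM are filled, and on the right none is.

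A ratio of 2 genes within a library does not depend on the scaling of that library. Before grafting the log2 ratio of Tet2 to Tet3 ranged from 1.31 over a median of 2.12 to 2.47 in EOM and from 0.86 over 1.77 to 2.15 in TA. In EOM grafts it ranged from -0.49 over 0.27 to 1.53 and in TA grafts from -0.43 over 0.23 to 1.59. In 3 of 7 EOM and 2 of 7 TA grafts Tet2 had fewer reads than Tet3, which happened in no library before grafting. The mean ratio fell from 2.08 ± 0.38 (SD, n = 8) to 0.56 ± 0.89 (n = 7) in EOM, a difference of -1.52 (exact permutation test, two-sided, p = 0.000777, adjusted p = 0.00932 over 12 tests of 3 ratios). It fell from 1.58 ± 0.48 (n = 8) to 0.42 ± 0.69 (n = 7) in TA, a difference of -1.16 (exact permutation p = 0.00326, adjusted p = 0.0196). Grafts had the lower ratio in 6 of 6 EOM donors and 7 of 7 TA donors, by as little as 0.01 in 1 TA donor. Of the grafts, 4 of 7 in EOM and 5 of 7 in TA lay below every library before grafting, and the others overlapped them.

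**Figure D3:**
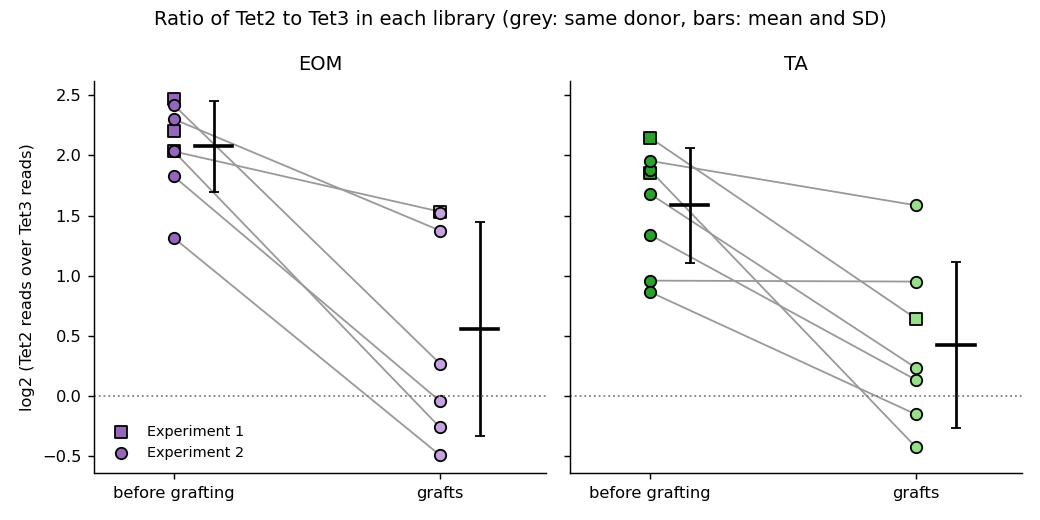
Log2 ratio of Tet2 reads to Tet3 reads in each library (y axis) before grafting and in grafts, for EOM (left) and TA (right), with grey lines joining the same donor, squares for Experiment 1, circles for Experiment 2, and mean and SD beside the points. Every line runs downwards, 1 in TA nearly flat, from means of 2.08 and 1.58 to 0.56 and 0.42, and the grafts spread more widely than the libraries before grafting.

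The fall was kept when any 1 library was left out (adjusted p up to 0.0196 in EOM and 0.0385 in TA), without the grafts of over 40% mitochondrial reads (-1.59 and -1.25) and without the grafts of fewer than 20 cells (-1.65 and -1.15). With Experiment 2 alone the differences were of like size, -1.58 in EOM and -1.06 in TA, but the adjusted p was 0.104 for both (exact permutation p = 0.0130 and 0.0173). Experiment 1 held 1 passing graft of each muscle, too few for a value of its own. Between the muscles, the ratio was 0.49 lower in TA than in EOM before grafting (exact permutation p = 0.0395, adjusted p = 0.118), which did not pass. Leaving out EOM mouse 2 of Experiment 2 made it -0.60 (adjusted p = 0.0292). Between TA and EOM grafts the difference was -0.13 (exact permutation p = 0.751, adjusted p = 0.821).

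Markers of several cell types moved with the stage. As deposited, 30.9% of all genes were called lower and 3.79% higher in TA grafts, and 55.8% and 3.51% in EOM grafts. Of 10 MuSC markers (among them Pax7, Myf5, Calcr and Cdh15) all 10 were called lower in grafts of both muscles, and after centring on the median 9 were called lower in TA and 2 in EOM grafts, and by edgeR 7 and 0. Their summed level had a median of 18621 RPM (15650 to 20073) in EOM and 19784 RPM (14204 to 25820) in TA before grafting, against 5041 RPM (1540 to 16260) and 3716 RPM (288 to 11269) in the grafts. Every MuSC marker had reads in every group. Of 6 endothelial markers (among them Pecam1, Cdh5 and Cldn5) 5 were called higher in each, and their summed median went from 183 RPM (97.1 to 540) to 1989 RPM (160 to 4263) in EOM and from 230 RPM (15.1 to 1725) to 3127 RPM (885 to 5114) in TA. Of 8 myofibre markers, of which 7 were tested, 6 were called higher in EOM and 1 in TA grafts, and their summed median went from 26.6 RPM (9.47 to 53.2) to 312 RPM (20.7 to 1245) and from 128 RPM (20.7 to 277) to 275 RPM (111 to 563). Among 6 fibro-adipogenic markers 3 were called higher and 2 lower in TA grafts, and 1 each in EOM grafts, where the sums were 1979 to 3859 RPM before and 970 to 8390 RPM after in EOM, and 1954 to 3608 RPM and 809 to 3483 RPM in TA. Of 6 Schwann cell markers 4 were called lower in EOM grafts and none in TA grafts, with sums of 393 to 4576 RPM before and 160 to 659 RPM after in EOM, and 174 to 1202 RPM and 330 to 2621 RPM in TA. Of the macrophage and leukocyte markers, only 3 of 9 were tested in each muscle, 1 was called higher in TA grafts (Lyz2) and 1 lower in EOM grafts (Cd68), and their sums ranged from 21.01 over a median of 35.3 to 1834 RPM and from 2.02 over 27.5 to 39.8 RPM in EOM and TA before grafting, and from 3.45 over 37.7 to 654 RPM and from 12.3 over 30.8 to 56.3 RPM in their grafts. Cd74 had no read in EOM grafts. After centring, 5 endothelial and 6 myofibre markers were called higher in EOM grafts, and 6 and 3 in TA grafts. Of the fibro-adipogenic markers, 3 were then called higher and 1 lower in TA, and 1 higher and 0 lower in EOM. No Schwann marker was called in either muscle after centring, and by edgeR 1 was called lower in EOM. Lyz2 stayed called in TA grafts on both scales, and Cd68 was called on neither. In bulk libraries fewer cells of a type and less RNA per cell cannot be told apart, and the part of these shifts in the change of Tet2, Tet3 and the other members was not tested.

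Of the members that place new marks, Dnmt3b ranged from -1.14 over -0.38 to 2.61 log2 RPM in EOM grafts, and 4 of 7 grafts had no read of it, against 1 of 8 libraries before grafting. It fell by 2.63 ± 0.85 on the log2 scale (limma adjusted p = 0.0132) and was lower in 6 of 6 donors, 1.15 beyond the median of all genes. In TA grafts it ranged from -1.14 over 2.67 to 4.26, and the change of -2.04 ± 0.89 did not pass (adjusted p = 0.0726), although without the TA graft of mouse 2 of Experiment 2 it did (adjusted p = 0.029). The EOM call was also lost without grafts of fewer than 20 cells (-2.17, adjusted p = 0.0606), without grafts of over 40% mitochondrial reads (-2.28, adjusted p = 0.0574) and with the failed libraries added (-2.38, adjusted p = 0.0794). Over all 7 EOM grafts there were 21 Dnmt3b reads, so this change rests on few reads. Dnmt3a stayed well counted in the grafts, with 25 to 169 reads in EOM and 28 to 129 in TA. It ranged from 3.71 over 5.36 to 6.32 in EOM grafts and from 4.16 over 5.24 to 6.06 in TA grafts, where 5 of 7 lay below every library before grafting. The changes of -0.53 ± 0.41 in EOM (adjusted p = 0.257) and -0.89 ± 0.41 in TA (adjusted p = 0.0881) did not pass, and they were 0.95 and 0.19 above the median of all genes. Dnmt3l had no read in any of the 7 EOM grafts, where 3 reads, the approximate upper limit for a count of 0 from counting error alone, would be 1.41 to 2.63 RPM, and 1 read in 1 of the TA grafts.

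Among the maintenance enzymes, Dnmt1 ranged from -1.14 over 2.77 to 4.25 log2 RPM in EOM grafts and from 0.60 over 2.64 to 5.25 in TA grafts, wider than before grafting and overlapping it. The changes of -1.59 ± 0.84 (adjusted p = 0.0977) and -1.29 ± 0.74 (adjusted p = 0.158) were near the median of all genes. Dnmt1 was lower in 6 of 6 EOM and 5 of 7 TA donors. Without the low EOM library of mouse 2 of Experiment 2 before grafting it passed in EOM (adjusted p = 0.0207), as it did without grafts of fewer than 20 cells (-2.20, adjusted p = 0.0471). Uhrf1 was patchy in the grafts, with 0 to 19 reads in EOM and 0 to 46 in TA, and 2 grafts of each muscle without a read. Its changes of -0.84 ± 0.93 in EOM (adjusted p = 0.423) and 1.02 ± 0.95 in TA (adjusted p = 0.389) had opposite signs, and the difference between them is given below with that of the other members.

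The log2 ratio of Dnmt1 to Dnmt3a, maintenance against new marks, was -1.94 ± 1.73 (SD, n = 8) in EOM and -1.81 ± 0.93 (n = 8) in TA before grafting, and -3.004 ± 1.503 (n = 7) and -2.21 ± 1.80 (n = 7) in the grafts. None of its 4 comparisons passed (exact permutation test, two-sided, adjusted p from 0.432 to 0.902). Dnmt3a had more reads than Dnmt1 in every library of all 4 groups, but it also has more exonic bases, 16642 against 7377. Per kb of exon the mean of Dnmt3a was the higher in all 4 groups, while some single libraries went the other way. In TA MuSCs before grafting, mouse 6 of Experiment 2 had 5.34 RPM per kb of Dnmt1 and 2.56 of Dnmt3a.

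Tet1 ranged from -1.14 over 0.94 to 4.36 log2 RPM in TA grafts, where 3 of 7 had no read, and it fell by 2.59 ± 0.86 on the log2 scale (limma adjusted p = 0.024). It was lower in 6 of 7 TA donors, and 5 of 7 grafts lay below every library before grafting. The call was kept when any 1 library was left out and lost with Experiment 2 alone (-2.43, adjusted p = 0.0918) and without grafts of fewer than 20 cells (-2.32, adjusted p = 0.0606). In EOM grafts Tet1 spread from -1.14 over 0.07 to 5.01, with 2 grafts above and 4 below all EOM libraries before grafting (-1.16 ± 0.92, adjusted p = 0.264). Tdg ranged from 0.07 over 3.47 to 5.42 in EOM grafts and from -0.44 over 3.51 to 4.48 in TA grafts, where 1 graft had no read. Its changes of -1.22 ± 0.66 (adjusted p = 0.106) and -1.64 ± 0.73 (adjusted p = 0.0774) did not pass, although in TA it did with the failed libraries added (-1.57, adjusted p = 0.0493). The log2 ratio of Tdg to Tet3 differed by -1.02 in EOM (exact permutation p = 0.143, adjusted p = 0.344) and by -1.55 in TA grafts (exact permutation p = 0.0211, adjusted p = 0.0845), and Glt8d2, which shares the locus of Tdg, had a median of 9 and 4 reads in EOM and TA grafts. The plot of values by library shows the wide spread of the sparsely read members in the grafts and the tight values of Tet2 and Tet3 before grafting.

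**Figure D4:**
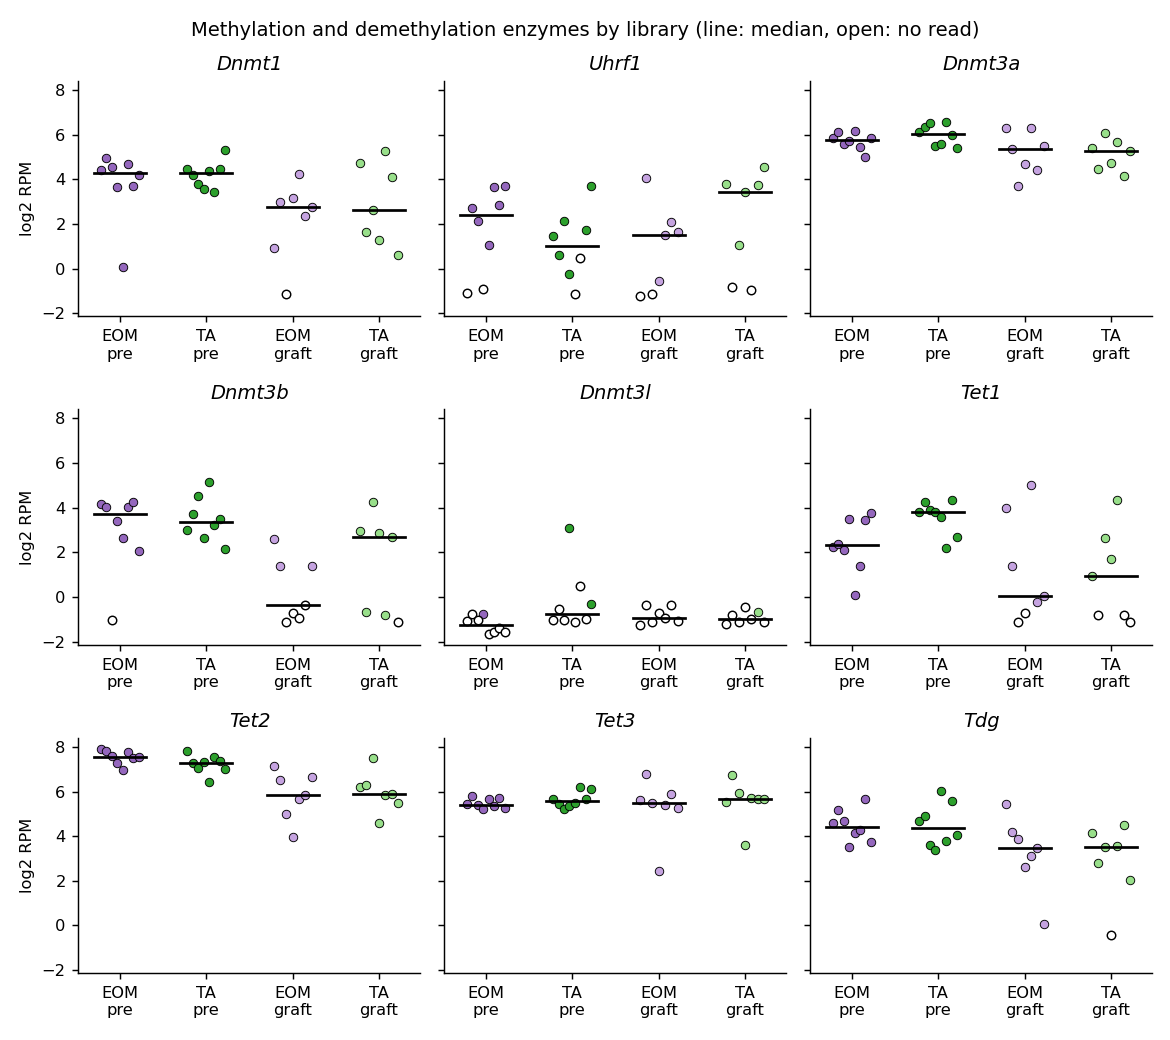
Log2 RPM of each enzyme in each library (y axis, same scale in all panels) for EOM and TA before grafting and for their grafts, with the median as a line and libraries without a read as open circles. Tet2 lies between 6.45 and 7.92 before grafting and reaches down to 3.96 in the grafts, and Dnmt3l is mostly without a read.

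Whether EOM and TA grafts, which shared the host muscle, differed in these enzymes was asked of the 14 grafts. None of the 8 members tested was called by limma, and of 12377 genes 0% were called. No member had an unadjusted p under 0.05 (452 genes had), and edgeR and DESeq2 called none of the members, where they called 0% and 0.0242% of genes. No member had ranges that did not overlap, where 0.0162% of genes had. The largest difference in size was that of Uhrf1, 1.20 ± 1.13 higher in TA grafts, followed by Dnmt3b at 1.13 ± 1.02. For Tet2 it was 0.15 ± 0.58 and for Tet3 0.28 ± 0.64, so that a difference of 1 log2 unit lay within 2 SE. The graft change of EOM less that of TA also gave no call among 8 members, where 0.208% of 14428 genes were called. No member had an unadjusted p under 0.05 there (1041 genes had), and edgeR and DESeq2 called 0 members, where they called 0.0139% and 0.714% of genes. It was -0.47 ± 0.55 for Tet2, -0.12 ± 0.64 for Tet3, -0.59 ± 1.24 for Dnmt3b, 1.43 ± 1.25 for Tet1 and -1.86 ± 1.35 for Uhrf1 (limma adjusted p from 0.815 to 0.98 over the 8). Both stages and both muscles enter this comparison, which shares all its libraries with the comparisons above.

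The other genes of the pathway were described by lists. Their counts of calls as deposited stand beside the 30.9% of all genes called lower in TA and 55.8% in EOM grafts. Of the partners of the oxidation and repair route 11 of 16 tested were called lower in each muscle, with a median change of -1.82 in TA and -2.21 in EOM against -1.09 and -1.48 over all genes, and none was called higher. The largest in TA were Parp1 (-3.47 ± 0.75, adjusted p = 0.00256), which marks DNA breaks for repair, Neil1 (-3.34 ± 0.86, adjusted p = 0.00676), a glycosylase, and Idh2 (-3.23 ± 0.54, adjusted p = 0.000438), which makes the 2-oxoglutarate that TET enzymes consume. In EOM they were Smug1 (-4.36 ± 0.70, adjusted p = 0.000217), another glycosylase, and Parp1 (-4.22 ± 0.84, adjusted p = 0.000878). After centring on the median, 2 were called lower and 2 higher in TA and 3 lower and 1 higher in EOM, Parp1 among the lower in both.

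Of the maintenance partners 1 of 10 was called lower in TA, the acetyltransferase Kat5 (-1.99 ± 0.45, adjusted p = 0.00325), and 6 of 10 in EOM, led by Zbtb24 (-2.86 ± 0.78, adjusted p = 0.00533) and its target Cdca7 (-2.56 ± 0.83, adjusted p = 0.0133). The medians of this list were -0.88 in TA and -1.34 in EOM, and after centring 1 was called lower in each muscle, Kat5 in both, and 1 higher in TA. Of the proteins that bind methylated CpGs 1 of 8 was called lower in TA, Mbd3 (-2.29 ± 0.57, adjusted p = 0.00564), and 6 of 8 in EOM, with Zbtb33 (-2.56 ± 0.96, adjusted p = 0.0277) and Mbd1 (-2.53 ± 0.76, adjusted p = 0.00909) first. Their medians of -0.84 in TA and -1.51 in EOM were near those of all genes. After centring 0 readers were called lower in either muscle, and 1 was called higher in TA. Among the enzymes that supply the methyl donor, 4 of 7 were called lower in TA and 5 of 7 in EOM. Ahcy, which clears the by-product that inhibits methyltransferases, changed by -2.41 ± 0.50 in TA (adjusted p = 0.00216) and -3.43 ± 0.59 in EOM (adjusted p = 0.00033) and was the only one of them still called after centring. Of the histone and guide factors 5 of 8 in TA and 6 of 9 in EOM were called lower, among them the H3K9 methyltransferases Ehmt2 (-3.24 ± 0.69 in TA, adjusted p = 0.00234, and -2.48 ± 0.66 in EOM, adjusted p = 0.00471) and Ehmt1. The medians of this list, -1.19 in TA and -1.51 in EOM, were near those of all genes. After centring, 2 were called lower in TA, Ehmt2 and Ehmt1, and 0 in EOM.

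Genes of S phase and mitosis, when maintenance methylation takes place, had a median summed level of 314 RPM (241 to 363) in EOM and 218 RPM (169 to 256) in TA before grafting, and of 93.6 RPM (61.6 to 201) and 150 RPM (61.5 to 210) in their grafts. Their median changes of -0.9995 in EOM and -0.47 in TA lay above those of all genes, -1.48 and -1.09, and after centring they were 0.25 and 0.43, beside -0.23 and -0.19 over all genes. As deposited, of 13 tested, 5 were called lower in EOM grafts, all of them subunits of the MCM helicase. In TA grafts 4 of 16 were called lower, led by the cyclin Ccne1 (-4.26 ± 0.67, adjusted p = 0.000301), and 1 higher, the licensing factor Cdc6 (2.39 ± 0.94, adjusted p = 0.0499). Before grafting Mcm6 was the only one called, 2.53 ± 0.64 lower in TA than in EOM (adjusted p = 0.0157). Of 14 germline genes that are kept silent by promoter methylation in somatic cells, 3 passed the filter on low values in TA and 2 in EOM, and 2 were called lower in each, Sycp3 in both. Their summed level stayed low, at medians of 27.9 and 21.4 RPM in EOM and TA before grafting and 10.6 and 7.01 RPM in the grafts, and Asz1 and Tex101 had no read in any group. On the deposited scale none of the genes in the lists of maintenance partners, readers, repair and TET partners, methyl donor supply, guide factors and germline genes was called between TA and EOM before grafting, and between the grafts none of any list was. After centring, and also by edgeR, 1 of the repair and TET partners was called higher in TA before grafting.

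Of the members, 4 had at least 10 reads in at least 24 of the 30 libraries, and the genes most like them over these libraries were sought by Pearson's r among 7478 others, on values less the median of the library. The nearest to Tet2 were Rnf169 (r = 0.77), N4bp2l2 (0.76) and Plxdc2 (0.74), and those nearest to Tet3 were S100a10 (0.73), Mbd2 (0.71) and Hsd3b7 (0.69). Mbd2 is itself a protein that binds methylated CpGs. Dnmt3a was most like Phactr4 (0.77), Fam166a (0.77) and Ogfod2 (0.73), and Tdg most like 5830403L16Rik (0.73), Snrpe (0.69) and Hspa9 (0.68). The members were not close to each other: r was 0.08 between Tet2 and Tet3 and 0.24 between Tet2 and Dnmt3a. These are descriptions over 30 libraries that share stages, donors and depth.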

How the data were processed

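RNA libraries were made from sorted cells by a single-cell protocol that does not mark strand. The authors trimmed reads with Trim Galore, aligned them with HISAT2 2.1.0 (tools and version per the labels) to GRCm38 and deposited log2 RPM per gene with 1 table for all libraries. The annotation release and the rule for reads shared by genes are not given in the sources used here. RPM summed to 1078240 to 1532880 per library, more than their nominal total. A further pair of deposited tables held, for each library, its total read count and the percent of its reads on mitochondrial genes, from which depth and mitochondrial share were taken.

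Libraries were grouped by their labels, and those that passed the quality control of the study were used. The deposited log2 values are whole reads for 99.9939% of values (within 0.05 reads), with 0.9 reads standing for 0, also in ratios. Comparisons used limma 3.58.1 in R 4.3.3 on the deposited values, with genes above log2 RPM 1 in at least 4 libraries, Benjamini-Hochberg adjustment over all genes tested, and calls at adjusted p under 0.05 and a log2 change beyond 1. Ratios were tested by exact permutation, over all divisions of the libraries into groups of the same sizes, in Python 3.11.15. Alternatives were edgeR 4.0.16 and DESeq2 1.42.0 on the recovered reads, other scalings, filters and sets of libraries, and a block for the donor. The fits were tested on simulated data. Each library comes from 1 mouse. EOM and TA, and both stages, share donors by the labels, and the correlation within donors was 0.139 before grafting, 0.0514 in TA, -0.0274 in EOM, 0.104 between grafts and 0.0255 over all groups.

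All 9 members are named. Of other lists, up to 5 called genes per list and comparison are named, by size of change, and, for members with 10 reads in 24 libraries, the 3 genes with the highest correlation. The members and the lists were chosen with earlier results of these data known. Bisulfite libraries and libraries that failed were not analysed here, except that the failed ones enter 1 alternative.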

Additional observations from a re-analysis of the deposited data

Results flagged for a closer look

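Among 36 groups of values of the members, 5 held a library whose gap to the nearest other exceeded the critical value of Dixon's test (0.526 of the range for 8 libraries, 0.568 for 7). Chance gives about 1 in 20 for values of a normal distribution, which does not hold where libraries have no read. In EOM MuSCs before grafting, Dnmt1 was lowest in mouse 2 of Experiment 2, at 0.0697 log2 RPM with 3 reads, where the next library had 3.65. Dnmt3b was lowest in mouse 5 of Experiment 1, at -1.04 with no read, where the next had 2.05. In TA MuSCs before grafting, Dnmt3l was highest in mouse 2 of Experiment 2, at 3.07 with 20 reads, where the next stood at 0.48. That next library had no read of Dnmt3l, and the next one with a read had 2, at -0.30. Most libraries of this group had none, so this flag does not single out a library by its level. Tet3 was lowest in the grafts of mouse 3 of Experiment 2 in both muscles, at 2.44 in EOM, where the next had 5.28, and at 3.62 in TA, where the next had 5.55. These 2 grafts were of 16 cells each by their labels and had 59.6% and 46.8% of reads on mitochondrial genes, and the part of either in the low Tet3 values was not tested.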

How the results depend on the processing

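Leaving out single libraries from the graft comparisons and the ratio of Tet2 to Tet3, and leaving out grafts from the ratios, were chosen after seeing the data. Under the alternatives 446 values of the members kept direction and call, 61 turned in sign, 23 lost and 2 gained a call. No member was called between the muscles, at either stage, or in the difference of changes under any alternative. The 2 calls in TA grafts went to 0 with Experiment 2 alone, without mitochondrial genes, centred on the median, with edgeR, with DESeq2 and without grafts under 20 cells, and ranged from 2 to 4 when single libraries were left out, 4 without the TA graft of mouse 2 of Experiment 2. With all libraries Tdg was called beside them. The 2 calls in EOM grafts went to 1, Tet2, with all libraries and without grafts of over 40% mitochondrial reads, and to 0 without mitochondrial genes and when centred. With edgeR and DESeq2 neither was kept, and the 1 call was Tet3, higher. Without grafts under 20 cells Dnmt1 was called in place of Dnmt3b. With single libraries left out the calls ranged from 2 to 3. Calls over all genes in TA grafts were 496 higher and 4046 lower as deposited, 1003 and 743 when centred, 897 and 942 without mitochondrial genes, 782 and 402 by edgeR and 1161 and 543 by DESeq2. In EOM grafts they were 460 and 7302, 871 and 634, 727 and 924, 907 and 380, and 1196 and 546. Rescaling moves the median of all genes by construction. The cause of the other shifts was not tested.

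Signs turned for these log2 changes. With all libraries, failed ones included, TA less EOM before grafting was -0.40 for Dnmt1, -0.17 for Dnmt3a, -0.16 for Dnmt3b, -0.47 for Tet3 and -0.70 for Tdg. In TA grafts, Dnmt1 was 0.11 by edgeR and 0.20 by DESeq2, Dnmt3a 0.0006 when centred, 0.0161 by edgeR and 0.12 by DESeq2, and Tet3 0.0752 with all libraries, 0.70 without mitochondrial genes, 0.81 when centred, 0.80 by edgeR, 0.92 by DESeq2, 0.23 without high-mitochondrial grafts and 0.28 without grafts under 20 cells. In EOM grafts, Dnmt1 was 0.0828 by edgeR and 0.26 by DESeq2, Dnmt3a 0.54 without mitochondrial genes, 0.72 when centred, 0.87 by edgeR and 0.9991 by DESeq2, and Uhrf1 0.22, 0.41, 0.53 and 0.64 in that order. Tet1 was 0.0853 when centred, 1.53 by edgeR and 1.74 by DESeq2, and Tdg 0.0274, 0.12 and 0.21. Tet3 was 0.86 without mitochondrial genes, 1.05 when centred, 1.22 by edgeR, 1.32 by DESeq2, 0.24 without high-mitochondrial grafts and 0.34 without grafts under 20 cells. Between grafts, Dnmt3a was 0.0567 with Experiment 2 alone, 0.0268 with all libraries and 0.0910 without grafts under 20 cells, Tet1 0.26 with Experiment 2 alone and 0.44 without grafts under 20 cells, Tet2 -0.21 with all libraries and -0.0012 by DESeq2, and Tdg 0.0869 without high-mitochondrial grafts and 0.29 without grafts under 20 cells. In the change of EOM less that of TA, Dnmt1 was 0.69 with Experiment 2 alone, 0.11 when centred and 0.0499 by DESeq2, Dnmt3a -0.19 with all libraries, and Tdg -0.0866 with all libraries, -0.0527 without high-mitochondrial grafts and -0.26 without grafts under 20 cells. Tet3 there was 0.16 without mitochondrial genes, 0.30 when centred, 0.40 by edgeR and by DESeq2, 0.0063 without high-mitochondrial grafts and 0.0583 without grafts under 20 cells.

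For the log2 ratios, Dnmt1 to Dnmt3a was -0.23 between the muscles before grafting with all libraries and 0.33 in TA grafts without grafts under 20 cells. The fall of Tet2 to Tet3 no longer passed with Experiment 2 alone, at -1.06 in TA and -1.58 in EOM. With single libraries left out it ranged from -1.35 to -1.02 in TA, -1.68 to -1.34 in EOM, -0.60 to -0.39 between the muscles before grafting and -0.33 to 0.0279 between grafts, where it was 0.0108 without grafts under 20 cells. Tdg to Tet3 passed in TA grafts with all libraries, at -1.64, and was 0.19 between grafts without grafts under 20 cells.

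With the donor as a replicate block, the members called numbered 0 between the muscles before grafting, 2 in TA grafts, 2 in EOM grafts, 0 between grafts and 0 in the difference of changes, and the block changed no call of a member.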
